A study of Sus scrofa domesticus with 4 samples.

Results

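The stromal matrix genes POSTN, DCN, LUM, BGN, SPARC, COL1A1, COL1A2, COL3A1, COL14A1 and FBN1 were examined in porcine endometrium, the lining of the uterus, after treatment with orexin B (OXB), a neuropeptide also called hypocretin 2. A probe of the array was assigned to a gene when its RefSeq accession belonged to that gene. This gave 30 probes of 6 of the 10 genes, among 43603 probes in all: 6 for POSTN, 4 for DCN, 9 for LUM, 7 for SPARC, 3 for FBN1 and 1 for COL1A2. No probe carried an accession of BGN, COL1A1, COL3A1 or COL14A1, and these genes were not analysed here, so that COL1A2 was the only collagen of the set. Of the 30 probes, 22 of 5 genes passed the filter on dim probes and were tested, among 13783 tested probes in all; none of the 3 FBN1 probes passed.

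The tissue came from 4 mature gilts (Large White x Polish Landrace, 7 to 8 months old) on days 15 to 16 of gestation. Explants of about 100 mg were kept for 2 h in medium and then for 24 h with 10 nM OXB or without treatment, and otherwise alike. The RNA of treated and of untreated explants was hybridised together on each of 4 two-colour arrays, and the dyes were swapped: arrays 1 and 3 had treated RNA labelled with Cy5, whereas arrays 2 and 4 had it labelled with Cy3. Which gilt gave the RNA of which array is not stated in the labels. The replicate is therefore the array (n = 4). P-values rest on the spread between arrays that the treatment and dye terms leave, moderated by the spread of all tested probes. A whole explant holds epithelium, stroma, vessels and immune cells, and a ratio in such tissue cannot tell fewer cells of a type from less RNA per cell.

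The endometrial stroma is embedded in a matrix of collagen fibrils that fibroblasts secrete. Type I collagen, a trimer made of the COL1A1 and COL1A2 chains, gives the fibrils their strength. Decorin (DCN) and lumican (LUM) are small leucine-rich proteoglycans that bind the fibrils and limit their thickness. Periostin (POSTN) and osteonectin (SPARC) are matricellular proteins, which link matrix and cells and bind collagen without bearing load, and fibrillin 1 (FBN1) builds the microfibrils around elastin. DCN and LUM are neighbours, with 0 protein-coding genes between them in the RefSeq table of assembly Sscrofa11.1.

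Ratios are log2 values of treated over untreated RNA, so a positive value means more RNA in the treated explants, and higher and lower below name the sign of a ratio whether or not it passed the test. In Cy5, 82.4% to 86.7% of spots were well above background on arrays 1, 3 and 4, against 46.8% on array 2, which had a slide and a scan day of its own. Cy3 reached 27.8% to 36.2%. Limma called 0 of 13783 probes at an adjusted p under 0.05 (0% of tested probes), and 0 of the 22 member probes. At an unadjusted p under 0.05, 1.72% of all tested probes were higher and 1.87% were lower.

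POSTN, a matrix protein of fibroblasts that promotes cell adhesion and collagen cross-linking, had the highest ratio of the 5 tested genes, with an interval that overlapped those of the other 4. Its brightest probe was above background in both RNAs on all arrays, with a ratio of 0.62 on array 1, 0.66 on array 2, 1.13 on array 3 and -0.06 on array 4. It was thus higher in treated RNA on arrays 1 to 3 and level on array 4. With treated RNA in Cy5 it was higher on arrays 1 and 3. With treated RNA in Cy3 it was higher on array 2 only. The fitted log2 ratio was 0.59 ± 0.20 (moderated SE; 95% interval 0.11 to 1.07), or 1.50-fold, and the SD over the 4 arrays was 0.49. Limma's unadjusted p was 0.0236 and the adjusted p was 0.999, so the difference did not pass.

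The other 5 POSTN probes had larger ratios, but none of them was above background in the untreated RNA of array 1, so their ratios on that array and their fitted values rest in part on a signal near background. Probe A_72_P693830 stood at 2.06, 1.44, 1.56 and -0.08 on arrays 1 to 4, a fitted 1.25 ± 0.27 or 2.37-fold (limma's unadjusted p = 0.00245, adjusted p = 0.999). Probe A_72_P650581 stood at 1.76, 1.06, 1.50 and -0.15, a fitted 1.04 ± 0.24. Probe A_72_P618531 had a fitted ratio of 1.02 ± 0.24, and probe A_72_P147831 one of 0.82 ± 0.26. All 4 followed one course, with high ratios on arrays 1 to 3 and a ratio near 0 on array 4. These probes carry the accession NM_001206347, as does the brightest one.

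Probe A_72_P632486 carries another POSTN transcript accession, NM_001206351. It stood at 0.45, 1.06, 1.11 and 0.21, a fitted 0.71 ± 0.22, and so lay within the range of the other POSTN probes. It was the only POSTN probe clearly above 0 on array 4.

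All 6 POSTN probes had a limma unadjusted p under 0.05, from 0.00245 to 0.0236, against 1.72% of all tested probes that were higher at that level. The 6 probes read the same RNA of 1 gene and are not independent. Their highest unadjusted p was 0.111 without array 2, 0.135 without array 3 and 0.832 with treated RNA read as Cy5 on all arrays, under which the lowest was 0.221. Of them, 2 were above 0 on 4 of 4 arrays, against 3.74% of all tested probes, but A_72_P618531 stood at 0.0002 on array 4. The brightest probe was not 1 of these. The 5 dimmer ones passed the filter only through the treated RNA, in which they were higher. These counts and the mean over probes therefore rest in part on the filter. Only the brightest was above background in every channel (limma's unadjusted p = 0.0236, adjusted p = 0.999). Across the 6 probes the fitted ratio ran from 0.59 for the brightest, with a mean log2 signal of 10.57, to 1.25 for the dimmest, with 9.81. Averaged over the 6 probes, the ratio was 1.14, 1.09, 1.43 and -0.04 on arrays 1 to 4 (mean 0.91 ± 0.65 SD, n = 4), with an adjusted p = 0.100 when each gene was tested by the mean of its probes in limma. The spread between probes was largest on array 1 (SD 0.65) and smallest on array 4 (SD 0.14).

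**Figure D1:**
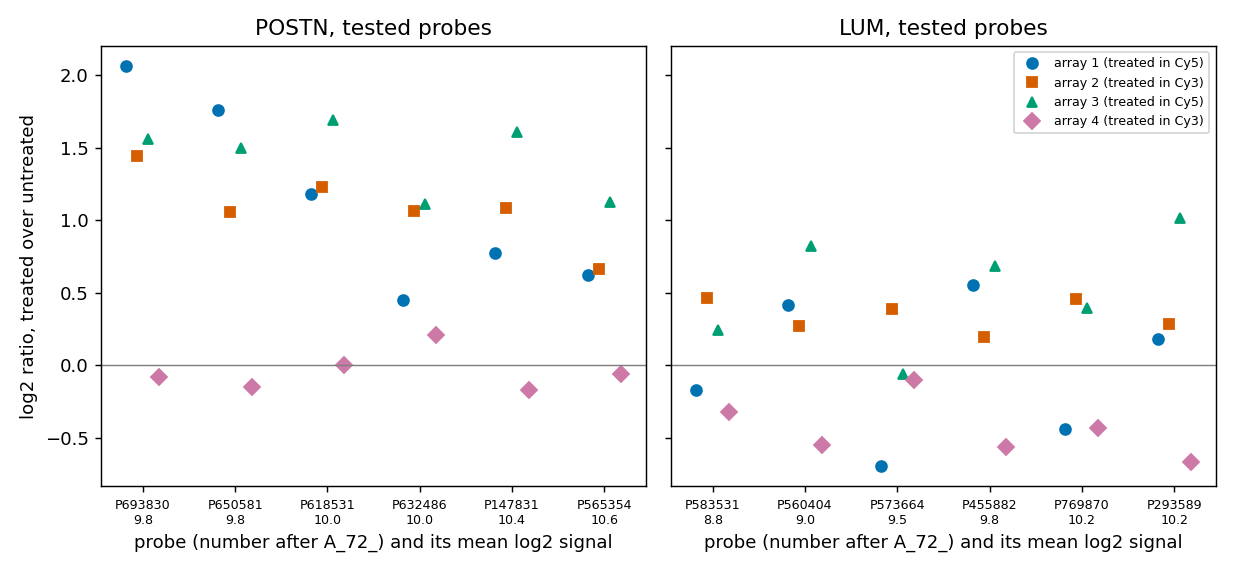
Log2 ratio of treated over untreated RNA (vertical axis) for each tested probe of POSTN (left) and LUM (right), ordered by mean log2 signal, with a point for each array. The POSTN probes lie between 0.45 and 2.06 on arrays 1 to 3 and between -0.17 and 0.21 on array 4, whereas the LUM probes lie on either side of 0.

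SPARC, a collagen-binding glycoprotein of matrix assembly, had small ratios that differed in sign between arrays. Its brightest probe stood at 0.87 on array 1, 0.07 on array 2, -0.20 on array 3 and -0.34 on array 4, a fitted 0.10 ± 0.23 (95% interval -0.43 to 0.63). Only array 1 was far above 0. The 5 tested SPARC probes ran from 0.06 to 0.40, and the highest of them, A_72_P638165, stood at 0.97, 0.39, 0.59 and -0.36 (limma's unadjusted p = 0.0881, adjusted p = 0.999). Without array 1 the ratio of the brightest probe was -0.17.

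DCN, which binds collagen fibrils and sequesters transforming growth factor beta, had a small ratio that was highest on array 1 and lowest on array 4. Its brightest probe stood at 0.76 on array 1, 0.19 on array 2, 0.19 on array 3 and -0.21 on array 4, a fitted 0.23 ± 0.19 (95% interval -0.22 to 0.69; adjusted p = 0.999). As for POSTN, arrays 1 to 3 were higher and array 4 was lower. The 4 DCN probes had fitted ratios of 0.10 to 0.23, and their means over probes were 0.70, 0.00, 0.30 and -0.30 on arrays 1 to 4. The fitted ratios of DCN were close between probes, whereas within array 2 the probes ran from -0.36 to 0.28 and within array 4 from -0.57 to 0.05, and the mean over probes was 0.18 ± 0.43 (SD over arrays, n = 4).

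LUM, a keratan sulfate proteoglycan of collagen-rich tissue, had a fitted ratio of 0.20 ± 0.24 for its brightest probe (95% interval -0.36 to 0.76; adjusted p = 0.999). That probe stood at 0.18, 0.28, 1.02 and -0.67 on arrays 1 to 4, with array 3 high and array 4 low. Of the 6 tested LUM probes, 4 were higher and 2 lower, from -0.12 to 0.24, where 53.1% of all tested probes were higher. Unlike the POSTN probes, the LUM probes did not follow one course. On array 1, A_72_P293589, A_72_P455882 and A_72_P560404 stood at 0.18, 0.55 and 0.42, whereas A_72_P769870, A_72_P573664 and A_72_P583531 stood at -0.44, -0.69 and -0.17. The dye terms of the former probes were 0.38 to 0.40 and those of the latter -0.26 to -0.02. Of these probes, A_72_P560404 and A_72_P583531 were not above background in the untreated RNA of arrays 1 and 3 and passed the filter through the treated RNA. This split was seen in the values and not tested, and all 9 LUM probes carry the same accession. On array 2 all 6 tested probes were above 0 (0.20 to 0.46), and on array 4 all 6 were below 0 (-0.67 to -0.10).

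COL1A2, the second chain of type I collagen, had opposite signs in the opposite dye orientations. Its single probe stood at 1.11 on array 1, -0.24 on array 2, 0.67 on array 3 and -0.88 on array 4. Arrays 1 and 3, with treated RNA in Cy5, were high, and arrays 2 and 4, with treated RNA in Cy3, were low. The fitted treatment ratio was 0.17 ± 0.20 (95% interval -0.30 to 0.63; adjusted p = 0.999), with the widest SD over arrays of the 5 genes (0.90). FBN1 gave no ratio that could be tested. Its 3 probes were above background in Cy5 on 3 or 4 arrays and in Cy3 on 0 arrays.

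**Figure D2:**
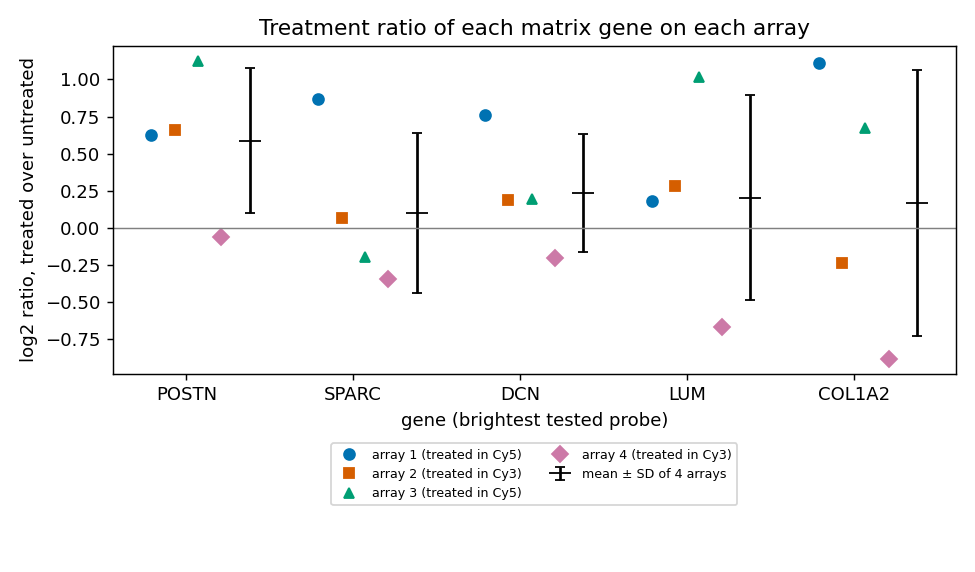
Log2 ratio of treated over untreated RNA (vertical axis) of the brightest tested probe of each gene, with a point for each array and the mean ± SD of the 4 arrays in black. POSTN lies at 0.62 to 1.13 on arrays 1 to 3, COL1A2 spreads from -0.88 to 1.11, and array 4 is the lowest array for every gene shown.

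All 5 tested genes had a fitted ratio above 0 by their brightest probe, against 43.9% of the 1637 tested named genes. Each of these 5 probes was above background in both RNAs on all 4 arrays. No gene of the set was above 0 on 4 of 4 arrays by its brightest probe, against 3.3% of named genes. The count of 5 is a description: the genes were chosen with earlier results known, and without array 2 it was 3. Of the 16 tested probes of the genes other than POSTN, 0 had a limma unadjusted p under 0.05 (lowest 0.0881). Median centring in place of loess moved the median of all tested probes from 0.02 to 0.28. By the brightest probes, DCN then stood at 0.68, SPARC at 0.53 and COL1A2 at 0.58. The lowest limma unadjusted p was 0.0304 for DCN, by its brightest probe, and 0.0479 for SPARC, by probe A_72_P638165 at 0.72. For the brightest SPARC probe limma's unadjusted p was 0.111. The lowest limma adjusted p was 0.521. Of all 13783 tested probes, 1081 had a limma unadjusted p under 0.05 with this centring, against 495 with loess.

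Collagen was compared with the small proteoglycans within each array. The ratio of COL1A2 minus the mean ratio of DCN and LUM was 0.64 on array 1, -0.47 on array 2, 0.07 on array 3 and -0.45 on array 4 (mean -0.05 ± 0.52 SD, n = 4), so the difference was far smaller than its spread. Against the mean of POSTN and SPARC, COL1A2 was higher by 0.37 on array 1 and by 0.21 on array 3, and stood at -0.60 on array 2 and -0.68 on array 4 (mean -0.18 ± 0.54 SD). By the brightest probes, each of these differences followed the dye orientation of the array. By the mean of tested probes, COL1A2 minus the matricellular genes was 0.17, -0.78, -0.04 and -0.78 on arrays 1 to 4 (mean -0.36 ± 0.50 SD). That mean includes POSTN probes that passed the filter only through the treated RNA, so it rests in part on the filter.

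Within the matricellular pair, the difference was smaller than its SD over arrays by the brightest probes and larger by the mean of tested probes. POSTN minus SPARC was -0.24, 0.59, 1.32 and 0.28 on arrays 1 to 4 (mean 0.49 ± 0.65 SD), and with the mean of all tested probes of each gene it was 0.40, 1.08, 1.44 and 0.13 (mean 0.76 ± 0.60 SD). POSTN minus LUM was above 0 on 4 of 4 arrays, at 0.44, 0.38, 0.11 and 0.61 (mean 0.38 ± 0.21 SD), and with the mean of all tested probes at 1.17, 0.75, 0.91 and 0.40 (mean 0.81 ± 0.32 SD). POSTN minus DCN was -0.14, 0.48, 0.93 and 0.15 by the brightest probes (mean 0.35 ± 0.46 SD), and 0.44, 1.09, 1.13 and 0.26 by the mean of tested probes (mean 0.73 ± 0.45 SD). POSTN minus COL1A2 was -0.49, 0.90, 0.45 and 0.82 by the brightest probes (mean 0.42 ± 0.64 SD), and 0.03, 1.33, 0.76 and 0.84 by the mean of tested probes (mean 0.74 ± 0.54 SD). On array 4, where the POSTN ratio itself was near 0, the other 4 genes were below 0, so that POSTN lay above each of them. The brightest POSTN probe was above 41.1% of all tested probes on that array. On array 1, POSTN was below DCN, SPARC and COL1A2 by the brightest probe, and above them by the mean of tested probes, which there rests on the 5 probes that were not above background in untreated RNA. Those 5 probes passed the filter only through the treated RNA, in which they were higher. The POSTN differences by the mean of tested probes, and their size beside the SD, therefore rest in part on the filter. All these differences are given with their spread and without a test.

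By the brightest probes, SPARC and DCN had the most alike ratios over the 4 arrays. The root mean square difference between their ratios was 0.22, against 0.42 for LUM and POSTN, the next closest pair by these probes, and 0.75 for POSTN and SPARC, the most unlike pair. The closeness of LUM and POSTN depended on the probe. By the mean of tested probes, POSTN minus LUM was 1.17, 0.75, 0.91 and 0.40 on arrays 1 to 4 (mean 0.81, against 0.38 by the brightest probes). Over these 4 arrays, the named genes outside the set closest to POSTN were TEAD1 (root mean square difference 0.20), FST (0.22), LOC100156879 (0.31), GATA2 (0.31) and ALOX15 (0.31), against a median of 0.88 over the 1599 genes compared. TEAD1 encodes a transcription factor of the Hippo pathway and FST encodes follistatin, which binds activins. Those closest to DCN were EHMT2 (0.06), MMP2 (0.08), TAB1 (0.11), COX6A1 (0.12) and ARL6IP4 (0.13), against a median of 0.57. For POSTN and for DCN, these genes were picked from the 1599 by their small difference, so they lie below the median by selection. MMP2, which encodes a gelatinase, had ratios of 0.82, 0.16, 0.17 and -0.35 on arrays 1 to 4.

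The signal of each RNA was also compared after scaling between arrays. For the brightest POSTN probe, the log2 signal of untreated RNA was 9.86, 9.65, 10.43 and 11.34 on arrays 1 to 4, and that of treated RNA was 10.48, 10.31, 11.55 and 11.28. The untreated signal was thus highest on array 4, the array with no difference. For COL1A2 the untreated signal was 12.71, 11.61, 13.01 and 14.46, and the treated signal was 13.83, 11.37, 13.69 and 13.57. Both RNAs were lowest on array 2. For DCN the signals were closer, from 13.56 to 14.46 in untreated and from 13.75 to 14.65 in treated RNA. The SD over arrays of the untreated signal was 0.76 for POSTN, 1.17 for COL1A2 and 0.39 for DCN. Since both RNAs share an array, the ratio within arrays is the comparison of the conditions: its mean was larger than its SD for POSTN (0.59 and 0.49) and smaller for DCN (0.23 and 0.40) and COL1A2 (0.17 and 0.90).

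**Figure D3:**
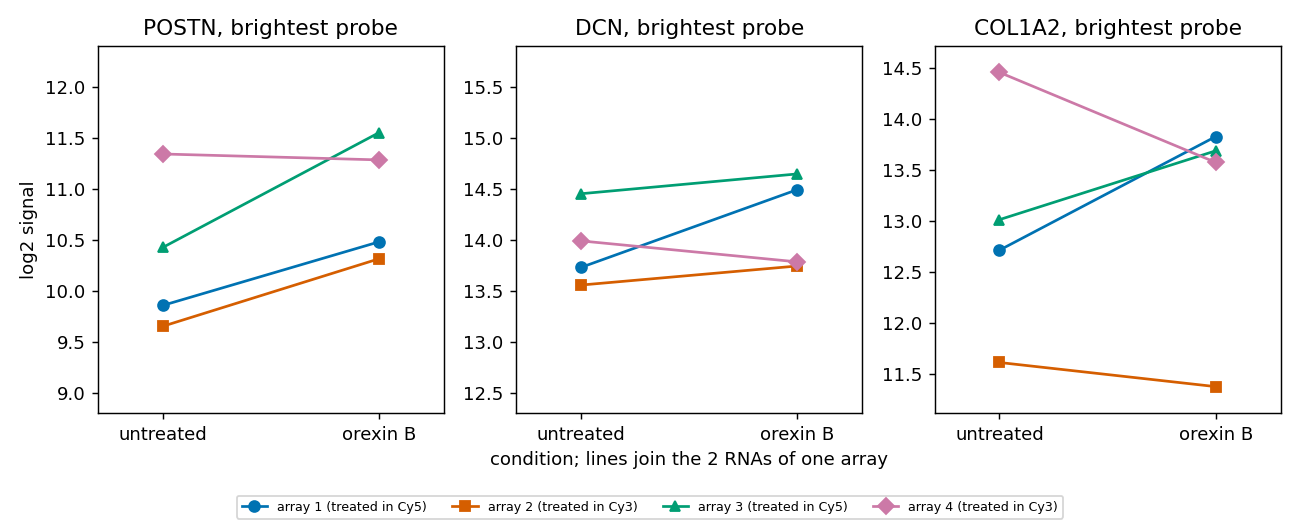
Log2 signal (vertical axis, of the same length in each panel) of the brightest probe of POSTN, DCN and COL1A2 in untreated and treated RNA, with a line for each array. The POSTN lines of arrays 1 to 3 go up and that of array 4 is level at 11.34 and 11.28, whereas the COL1A2 lines go up on arrays 1 and 3 and down on arrays 2 and 4.

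The dye term of the fit, which is the ratio of Cy5 over Cy3 whichever RNA carries the dye, was larger in size than the treatment ratio for 13 of the 16 probes of the other genes and for 0 of 6 POSTN probes. For COL1A2 it was 0.73 ± 0.20 (limma's unadjusted p = 0.00771, adjusted p = 0.290), larger than the treatment ratio of 0.17, and Cy5 over Cy3 was above 0 on all 4 arrays (1.11, 0.24, 0.67 and 0.88). For the 4 DCN probes the dye term was 0.24 to 0.40, larger than the treatment ratio for each. The dye term was the larger one for 5 of 6 LUM probes and 3 of 5 SPARC probes. The POSTN dye terms were 0.07 to 0.59. The 6 POSTN probes read 1 gene, and 5 of them passed the filter only through the treated RNA, in which they were higher. For the brightest, above background in both RNAs on all arrays, the dye term was 0.29 and the treatment ratio 0.59. Over all tested probes, 64.1% had a dye term larger than the treatment ratio.

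**Figure D4:**
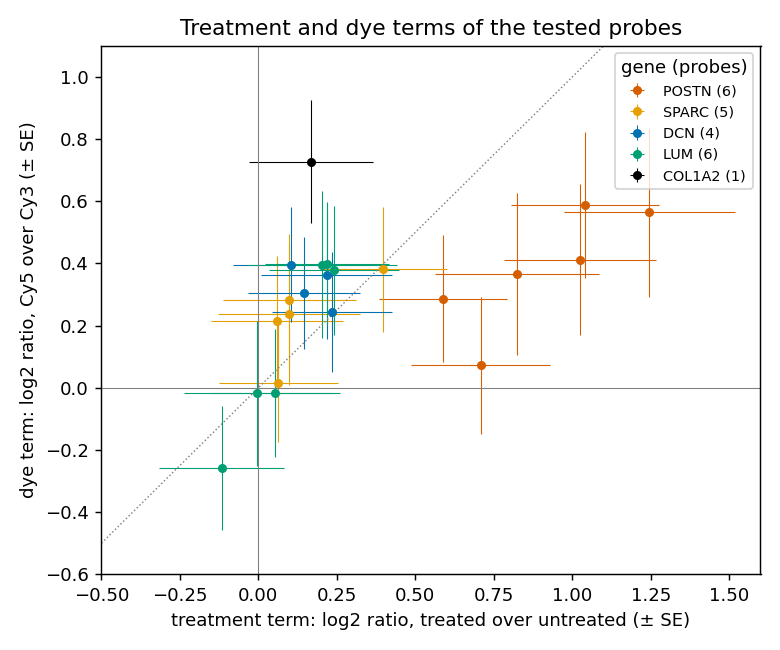
Treatment term (horizontal axis, log2 ratio of treated over untreated) against dye term (vertical axis, log2 ratio of Cy5 over Cy3) of the 22 tested probes, each ± SE, with a dotted line where the terms are equal. The 6 POSTN probes lie to the right of the line, and COL1A2 lies highest at a dye term of 0.73.

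The protocol text, which is the same for every sample, leaves room to read the treated RNA as Cy5 throughout. Each array's own dye labels were used here, and the authors' value table turns arrays 2 and 4 in the same way (its columns correlate with the log2 of the scanner's Cy5 over Cy3 signals at 1 on arrays 1 and 3 and at -1 on arrays 2 and 4). Under the other reading, the ratio of COL1A2 would be 0.73 and that of the brightest POSTN probe 0.29. COL1A2 minus the matricellular mean would then be 0.47 in place of -0.18, and COL1A2 minus the small proteoglycans 0.41 in place of -0.05.

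Other genes of the matrix had ratios of either sign. Among other collagens, 2 of 32 listed genes were tested, COL5A1 at 0.06 ± 0.20 and COL5A2 at 0.01 ± 0.19. Of the enzymes and chaperones of collagen synthesis, 4 of 27 were tested, with 2 higher and 2 lower. LOX, which cross-links collagen, stood at 0.26 ± 0.18, the prolyl isomerase gene FKBP10 at 0.00 ± 0.18, the collagen chaperone gene SERPINH1 at -0.19 ± 0.19 and the prolyl hydroxylase gene P4HA1 at -0.29 ± 0.21. All 6 tested probes of P4HA1 were lower, from -0.42 to -0.14. None of these genes passed, and 0 had a limma unadjusted p under 0.05, where 1.83% of named genes were higher and 3.91% lower at that level.

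Of 58 listed matrix glycoproteins and proteoglycans, 10 were tested, 5 higher and 5 lower, with a median of 0.00 against -0.02 over all tested named genes. TNXB, a tenascin of collagen fibrils, stood at 0.48 ± 0.21, the syndecan gene SDC4 at -0.20 ± 0.19 and MGP, an inhibitor of calcification, at -0.35 ± 0.24 beside a dye term of 0.92. SPARCL1, a relative of SPARC, stood at 0.72 ± 0.58 on the 3 arrays on which its brightest probe had a value, and 3 of its 7 tested probes were higher. Of 14 listed receptors of collagen and matrix, 6 were tested, with 3 higher and 3 lower. The integrin genes ITGB3 and ITGB5 stood at 0.57 ± 0.36 and 0.28 ± 0.19, and ITGA2 and ITGAV at -0.22 ± 0.22 and -0.20 ± 0.26. Of the 2 tested ITGB3 probes, 1 was higher, and the other stood at -0.22. Of 22 listed genes of the transforming growth factor beta pathway, an inducer of matrix genes, 8 were tested, with 2 higher and 6 lower and a median of -0.06. BMP2 and INHBA stood at 0.20 ± 0.21 and 0.16 ± 0.20, and SMAD3 at -0.24 ± 0.19. In these 3 lists 0 genes had a limma unadjusted p under 0.05.

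Markers of cell types gave the tissue context of these ratios. Their counts stand beside 43.9% of all tested named genes that were higher. Of 12 listed fibroblast markers, 2 were tested, MEG3 at 0.63 ± 0.19 (-0.14, 1.34, 0.41 and 0.93 on arrays 1 to 4) and ENG, which endothelium also expresses, at 0.28 ± 0.20. The defining fibroblast markers PDGFRA and PDGFRB were not among the tested genes, so the stromal origin of the matrix RNA was not checked. Endothelial markers were lower for 4 of 4 tested genes (median -0.21), with CDH5 at -0.39 ± 0.17 and PECAM1 at -0.34 ± 0.27 lowest and VWF (-0.07) and CLDN5 (-0.08) nearest to 0. Of the 3 tested PECAM1 probes, 1 was higher, at 0.08. Macrophage and myeloid markers were lower for 5 of 6 (median -0.51), with CD86 at -0.68 ± 0.19 and FCGR3A at -0.66 ± 0.23 at one end and TYROBP (-0.33) and CD163 (0.18) at the other. T and NK cell markers were lower for 5 of 5 (median -0.27), with GZMB at -0.38 ± 0.17 and CD247 at -0.33 ± 0.20, and KLRK1 (-0.26) and NKG7 (-0.23) nearest to 0. Their array medians were -0.03, -0.65, 0.03 and -0.55, so only arrays 2 and 4, with treated RNA in Cy3, were clearly below 0. Their median dye term was 0.46, larger in size than the median treatment ratio.

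Epithelial markers were higher for 3 of 8 tested genes (median -0.16), with KRT8 at 0.35 ± 0.32, CLDN7 at 0.31 ± 0.18, CLDN4 at -0.51 ± 0.22 and CLDN3 at -0.54 ± 0.21. Their array medians of -0.69, -0.65, 0.01 and 0.45 were lowest on arrays 1 and 2 and highest on array 4. The POSTN ratios over the same arrays, averaged over probes, were 1.14, 1.09, 1.43 and -0.04. The part of cell makeup in the POSTN ratio was not tested. Smooth muscle and pericyte markers were higher for 3 of 6 (median -0.01), with RGS5 at 0.39 ± 0.19, MYL9 at 0.11 ± 0.18, CNN1 at -0.21 ± 0.19 and DES at -0.53 ± 0.38. Their array medians of 0.54, -0.48, 0.03 and -0.39 had the signs of the COL1A2 ratio, and their median dye term was 0.42. Of the trophoblast and conceptus markers, 3 were tested: TFAP2C at 1.14 ± 0.19, GATA2 at 0.34 ± 0.20 and IL1B2 at -0.42 ± 0.18. The other of the 2 tested TFAP2C probes stood at 0.55. No red blood cell marker was tested. None of the marker genes passed the adjusted threshold, and limma's unadjusted p was under 0.05 for MEG3 (0.0127), TFAP2C (0.000585), CLDN3 (0.0375), FCGR3A (0.0252) and CD86 (0.00835), where 1.83% of all tested named genes were higher and 3.91% lower at that level.

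**Figure D5:**
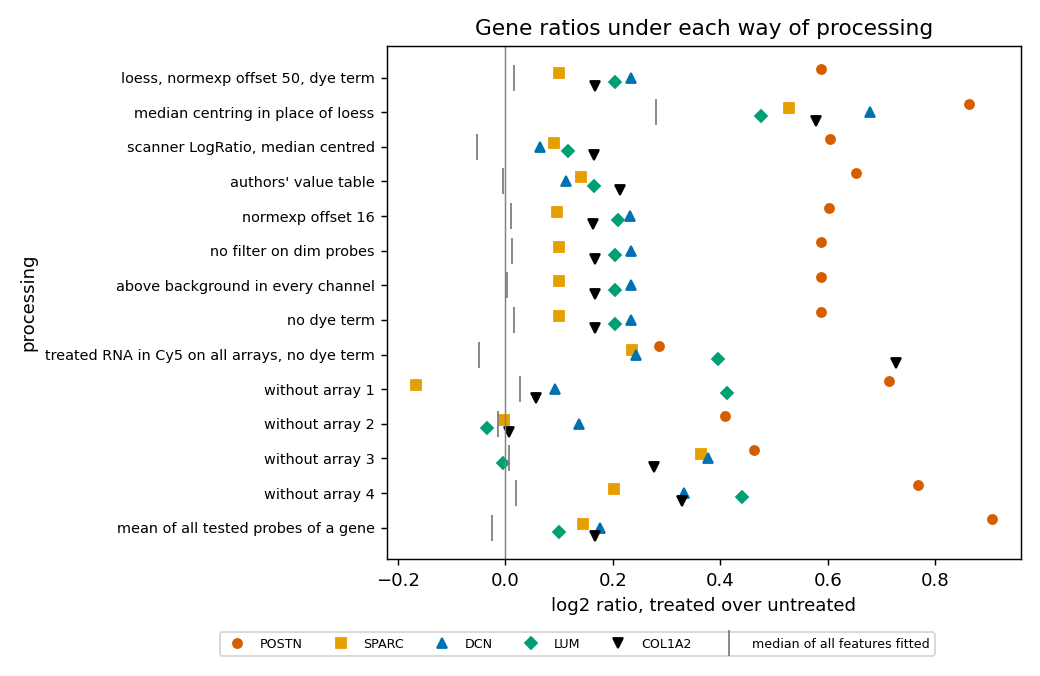
Log2 ratio (horizontal axis) of the 5 genes under each way of processing (vertical axis; the top one is that of the text), with the median of all features fitted as a grey bar. POSTN lies furthest to the right under every setting except the reading of all arrays as treated in Cy5, where COL1A2 does at 0.73 and POSTN stands at 0.29.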

How the data were processed

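Per the file headers, the deposited intensities (median spot and local background signal of both channels) are output of Agilent Feature Extraction 10.7.3.1. The log10 ratio in these files was made by the scanner software from Cy5 and Cy3, per the file headers. The table of values deposited by the authors gives, per array, the log2 ratio of treated to untreated RNA. The median signals were corrected with normexp (offset 50) and normalised within arrays by loess in limma 3.58.1 (R 4.3.3). Control and outlier spots were left out, and the spots of a probe were averaged. Probes entered the test when, for treated or for untreated RNA, every array showed them well above background. Per probe, limma (lmFit, eBayes) fitted treatment and dye, leaving 2 residual degrees of freedom. The moderation of eBayes added 5.09 prior degrees of freedom, estimated from all tested probes. P-values are two-sided, with Benjamini-Hochberg adjustment over all tested probes. The script was tested on simulated data. The tested probe of highest mean signal stands for its gene. Signals of each RNA were scaled between arrays by Aquantile.

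RefSeq accessions without versions (Sscrofa11.1) named 6700 probes. The headers give no genome build, so no coordinates are printed, and sequences were not used here. All members were named, and from each other list up to 2 genes at either end, except 1 gene that is not reported here. The members, lists and tests were chosen with earlier results of these data known. The number of arrays limits the precision. Alternatives changed the normalization, background, filter, dye term, dye reading, arrays and choice of probe.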

Additional observations from a re-analysis of the deposited data

Results flagged for a closer look

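Among 74 series of 4 array ratios examined, which cover the tested probes of the matrix genes, the differences between them and the named genes of the other lists, 6 had an array far from the other 3, by a gap above Dixon's 95% critical value. Chance alone marks about 1 in 20 such series. None of the 6 belongs to the matrix genes described first. COL5A1 stood at 0.72 on array 3, against -0.22 to -0.07 on the other arrays. ITGB5 stood at 0.76 on array 1 (others 0.08 to 0.17), ENG at 0.90 on array 1 (others -0.01 to 0.13) and CLDN7 at 0.67 on array 1 (others 0.18 to 0.20). VWF stood at 0.88 on array 1 (others -0.52 to -0.29), and KLRK1 at 0.23 on array 2 (others -0.48 to -0.37).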

How the results depend on the processing

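Of 65 gene ratios computed under the alternatives, 61 kept their sign and their side of the threshold and 4 changed sign, all on leaving out an array. The settings without the dim-probe filter, with the stricter filter and without the dye term leave a ratio as it was by construction, and no member gene passed under any setting, so these counts are partly fixed. The mean of tested probes also cannot change COL1A2, which has a single probe. The scanner's ratio and the authors' value table gave the same differences between genes, so they are not separate alternatives. Leaving out each array in turn gave 0.41 to 0.77 for POSTN, 0.09 to 0.38 for DCN, -0.034 to 0.44 for LUM, -0.17 to 0.36 for SPARC and 0.01 to 0.33 for COL1A2. The number of genes with a higher ratio ran from 3 to 5, the lowest without array 2. The number of probes called ran from 0 to 15, the highest without array 2, and 0 of the 15 were member probes. On leaving out an array, COL1A2 minus the small proteoglycans ran from -0.28 to 0.09 and COL1A2 minus the matricellular genes from -0.36 to -0.01. A slide or scan day term would give the fit without array 2, since that array was alone in its batch. Without array 4, the POSTN probes stood at 0.77 to 1.63, with a lowest adjusted p of 0.155. With treated RNA in Cy5 on all arrays, COL1A2 minus the matricellular genes was 0.47 and minus the small proteoglycans 0.41. When each gene was tested by the mean of its probes, 2 genes were called, neither of them a member, and POSTN stood at 0.91. Median centring moved the median of all tested probes from 0.02 to 0.28 and POSTN to 0.86, which is 0.58 above that median. With the brightest probe of each gene POSTN lay 0.34 to 0.75 above the median of all fitted features. FBN1 had fitted ratios (-0.06 to 0.22 over its 3 probes) only without the filter on dim probes, and BGN, COL1A1, COL3A1 and COL14A1 gave no value under any alternative. The ratio within each array already pairs treated with untreated RNA, and all arrays form 1 group, so no further pairing was made. The causes of these shifts were not tested.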
